A study of Homo sapiens with 9 samples.

Results

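HuH-7 cells given arsenic at 5 µM together with copper at 5 µM were compared with untreated HuH-7 cells, 1 library a side. HuH-7 is an established human hepatocellular carcinoma line, a tumour line that still makes many secreted liver proteins and that, as a cancer line, stands in for hepatocytes only in part. These are 2 of the 9 libraries of a series on models of liver toxicity; the other 7 come from acetaminophen, caffeine, serum exosomes, 2 mixtures of these, arsenic at 5 µM and arsenic at 15 µM. No copper-only library is among the 9, so within this comparison the share of copper and that of arsenic cannot be told apart. The comparison covers every gene whose read count, scaled to the size of its library (CPM), reached 1 in at least 2 of the 9 libraries, 18237 of 63677 gene identifiers. The labels give neither the chemical form of arsenic or copper nor the hours of exposure.

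The control held 951816 counts on genes and the arsenic with copper library 2638534, against 658725 to 8227906 over the series. All 12 hepatoma markers, among them ALB, AFP and HNF4A, were detected on both sides, with a summed level of 27614 CPM in the control and 21640 CPM with arsenic and copper. Of 13 blood cell markers 3 passed the filter on low counts, with LYZ at 164 and 43.4 CPM, and the hemoglobin genes and PTPRC had at most 1 count a side. Of 12 stromal and vessel markers 7 passed, with a summed level of 71.4 and 59.4 CPM. Nothing in the labels says that a culture was repeated, so no value here has a replicate check. Each ratio between the 2 libraries is given with its exact 95% counting interval, which comes from the binomial law of the 2 counts. It covers counting error alone, since there is 1 library a side. The libraries were amplified and carried no molecular tags, so copies of 1 molecule count as separate reads and the interval may be too narrow. In bulk RNA, fewer cells that express a gene and less of its RNA per cell cannot be told apart.

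Trivalent arsenic binds thiol groups of proteins, and copper ions do the same and also cycle between oxidation states. Thiol damage frees the transcription factor NRF2 from KEAP1, and NRF2 drives genes for glutathione, thioredoxin, NADPH and heme breakdown. Unfolded cytosolic proteins activate HSF1, the driver of heat shock chaperones, metal ions act through MTF1 on metallothionein genes, and several stress kinases meet at eIF2α and ATF4 in the integrated stress response. Metallothioneins are small cysteine-rich proteins that bind copper and zinc, and the liver is the body's main organ of copper storage and export.

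A gene was counted as higher or lower when its TMM-scaled level (CPM after trimmed-mean scaling of library size) lay at least 2 times apart, with 0.5 counts added to each side, and the counting interval excluded a ratio of 1. Of the 18237 genes, 1708 were higher with arsenic and copper (9.37%) and 1276 were lower (7.0%), together 16.4%. The exosome library, counted in the same way against the same control, had 5.14% of genes apart. At least 8 times apart were 183 higher and 310 lower genes, and at least 16 times apart 108 and 92. Of the higher genes 888, and of the lower genes 495, also lay outside the range of all 6 libraries without arsenic. The median log2 ratio over all genes was 0.03. With DESeq2 size factors in place of TMM, the log2 ratios shifted by a median of -0.15 and the split became 1299 higher and 1556 lower, so the balance between the directions depends on the scaling. The lower genes had short transcripts, with a median length of 1992 nt against 4538 nt for the higher genes and 3157 nt over all genes; Pearson's r between log2 ratio and log10 length was 0.25 across 17741 genes, which share both libraries. After GC content and length trends were removed, 1568 genes were higher and 922 lower.

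**Figure D1:**
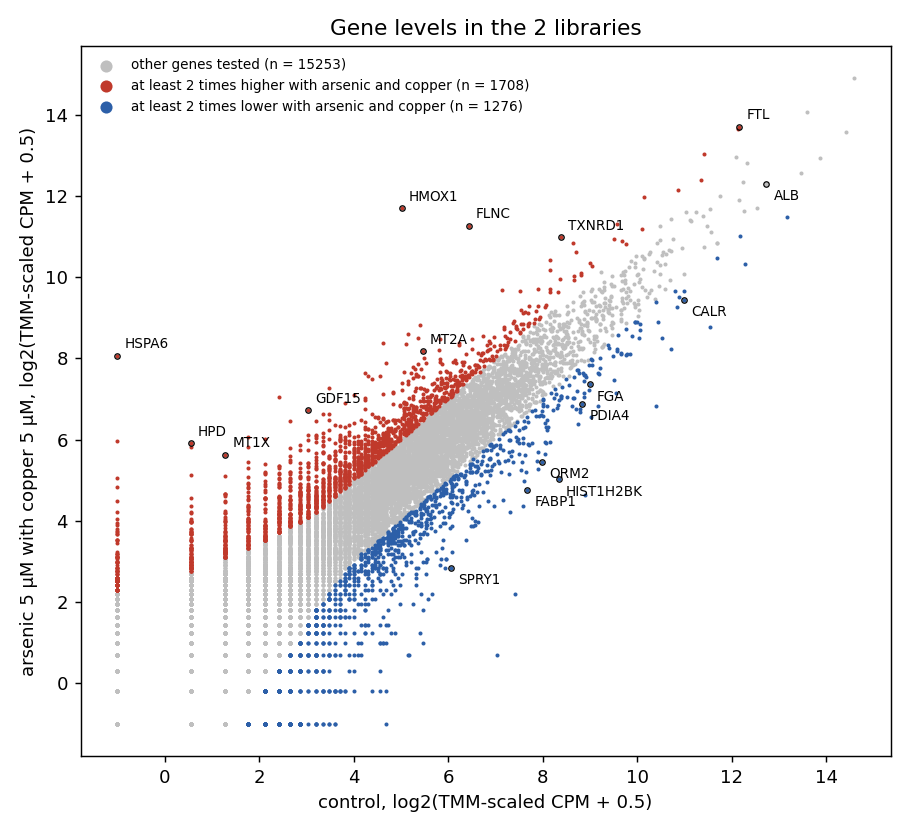
Level of each of 18237 genes in the control (x axis) and with arsenic and copper (y axis), both as log2(TMM-scaled CPM + 0.5); red points are the 1708 higher genes, blue points the 1276 lower genes, and grey points the others. HMOX1 and FLNC stand above the diagonal at high levels, and HSPA6 sits at the left edge because the control had 0 counts of it.

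A test that uses a spread between libraries was possible only in an additive edgeR quasi-likelihood model over all 9. In this model departures from additive effects, and the difference between the 2 doses of arsenic alone, stood in for replicates (3 residual degrees of freedom). The model added 79.4 prior degrees of freedom, so its p-values rest mostly on a spread pooled over genes. Its arsenic with copper term called 9 genes higher and 0 lower at an adjusted p under 0.05, or 0.0494% of genes, with 668 genes at an unadjusted p under 0.05 and 3 higher and 2 lower genes by DESeq2. HSPA6, a heat shock protein of the HSP70 family that is near silent without stress, rose (edgeR adjusted p = 0.000251). HMOX1, heme oxygenase, rose with a log2 fold change of 7.21 (SE 1.27, edgeR adjusted p = 0.00115). AL391822.1, a processed pseudogene whose reads may belong to its parent gene, had an edgeR adjusted p of 0.000826. GDF15, a stress cytokine, MT1X, a metallothionein, the adaptor gene SH3BP2, HPD, a tyrosine breakdown enzyme, and DISP3, a membrane protein gene, each had an edgeR adjusted p of 0.0498. Their log2 fold changes were 4.51 (SE 1.00) for GDF15, 5.27 (SE 1.16) for MT1X, 4.40 (SE 0.98) for SH3BP2 and 5.84 (SE 1.27) for HPD. DISP3 stood at 7.42 CPM and at 0 in the control, but another library without arsenic held 89.0 CPM of it. Over 13 alternative fits HMOX1 passed in 8 and HSPA6 in 7, and each of the 9 genes had an adjusted p of 1 in at least 1 of them. Without the control, without acetaminophen, or with protein-coding genes alone the edgeR term called 0 genes (766, 418 and 442 at an unadjusted p under 0.05), and without arsenic 5 µM it called 100 higher and 24 lower.

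The NRF2 targets had 26 of 32 tested members higher and 0 lower, with a median log2 ratio of 1.83 against 0.03 over all genes. In heme metabolism, HMOX1 went from 31.8 CPM in the control to 3328 CPM with arsenic and copper, a ratio of 105 (74.4 to 152). Over the 6 libraries without arsenic its lowest, median and highest levels were 12.6, 31.0 and 239 CPM, and arsenic alone gave 1079 CPM at 5 µM and 5104 CPM at 15 µM. The library with copper thus lay above every library without arsenic and between the 2 doses of arsenic alone. SLC48A1, a heme transporter, went from 2.90 to 66.0 CPM on 3 and 178 counts, 22.8 times higher (7.68 to 112), and BLVRB, a biliverdin reductase that acts after heme oxygenase, from 24.1 to 138 CPM.

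The ferritin chains, which store the iron that heme breakdown frees, were both higher. FTL, the light chain, went from 4554 to 13340 CPM (ratio 2.93, 2.84 to 3.02), above the range of 1772 to 9862 CPM of the libraries without arsenic, while arsenic at 5 µM alone had 2240 CPM. FTH1, the heavy chain, went from 320 to 792 CPM, within that range (up to 853 CPM). Of 13 iron genes 3 were higher and 0 lower, beside 9.37% higher and 7.0% lower over all genes. The third higher gene was HAMP, the iron hormone hepcidin, at 9.65 and 50.5 CPM. The ferroxidase gene HEPH, which carries copper at its active site, had 13 counts in the control and 1 with arsenic and copper (12.5 and 0.371 CPM, ratio 0.0296, interval 0.000696 to 0.197).

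In the thioredoxin and glutathione branches, TXNRD1, thioredoxin reductase, stood at 335 and 2012 CPM (ratio 6.01, 5.39 to 6.72). The cystine importer gene SLC7A11 stood at 20.3 and 178 CPM (ratio 8.79, 5.68 to 14.3) and was at 465 CPM with arsenic 5 µM alone. GCLM, the regulatory subunit of the first enzyme of glutathione synthesis, stood at 31.8 and 167 CPM, and its catalytic partner GCLC at 26.1 and 45.3 CPM, short of the 2-fold limit. All 4 of these genes had their lowest level of the 6 libraries without arsenic in the control. Over the 22 glutathione genes 9 were higher and 2 lower. The lower ones were the microsomal transferases MGST2 (94.6 to 14.5 CPM) and MGST3 (24.1 to 6.68 CPM). The peroxidase GPX4 was at 455 and 395 CPM and the redox protein TXN at 234 and 213 CPM, and neither was counted as apart.

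Genes of the pentose phosphate pathway, a route that supplies NADPH, were among the higher NRF2 targets. TKT, transketolase, stood at 282 and 797 CPM (ratio 2.83, 2.50 to 3.21), against 70.2 to 292 CPM in the libraries without arsenic and 233 and 390 CPM with the 2 doses of arsenic alone. The library with copper was the highest of all 9 for TKT. PGD and TALDO1 had ratios of 2.40 and 2.55, with 1066 and 402 CPM, and arsenic alone reached 1099 CPM of PGD at 5 µM and 415 CPM of TALDO1 at 15 µM. ME1, another NADPH source, had a ratio of 5.74 (4.20 to 8.04). NQO1, the quinone reductase often used to follow NRF2, stood at 600 and 1114 CPM (ratio 1.86, 1.70 to 2.03) and missed the 2-fold limit. The antioxidant response element, written here as TGACNNNGC, was searched on both strands from 250 bases before to 50 after each start. It lay in 5 of 24 promoters of NRF2 targets (20.8%) and in 15.0% of those of all tested genes. Promoters of the integrated stress response genes held it in 7 of 22 (31.8%).

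**Figure D2:**
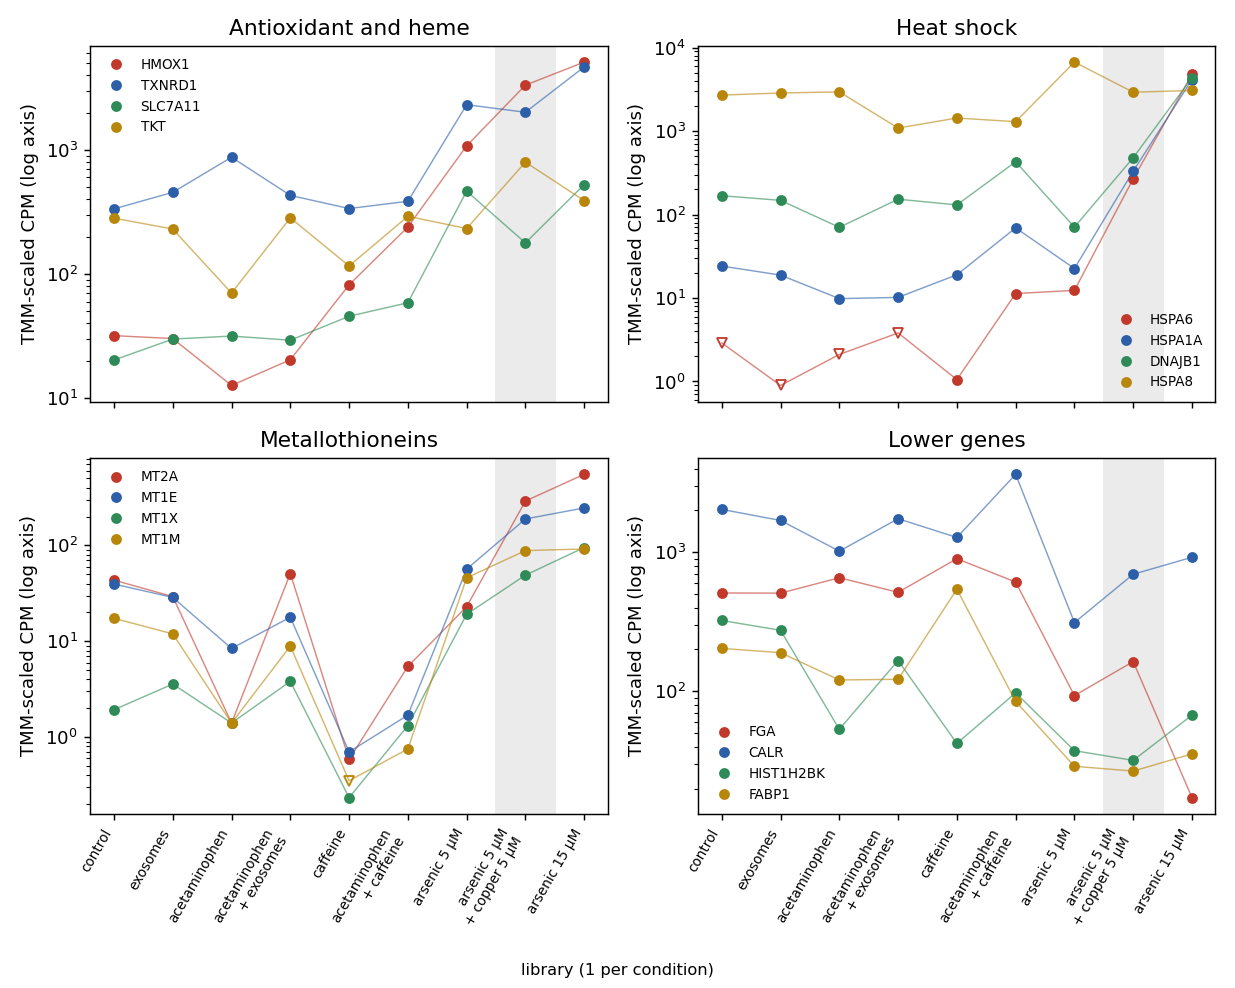
Levels of 16 genes in each of the 9 libraries (TMM-scaled CPM on a log axis, 1 point a library; open triangles mark 0 counts and are drawn at the 3-count floor; grey band, arsenic with copper). HMOX1, HSPA6, HSPA1A and the 4 metallothioneins are higher in the banded library than in the control, and HSPA6 and HSPA1A are higher still at arsenic 15 µM; FGA, CALR, HIST1H2BK and FABP1 are lower than in the control in all 3 arsenic libraries.

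Of 11 metallothionein genes 8 passed the filter on low counts, and 6 of these were higher and 0 lower (median log2 ratio 2.53, or 2.29 with the gene absent from the control set to its 3-count floor). All 8 lay above each of the 6 libraries without arsenic. MT2A, the most widely expressed isoform, stood at 43.4 and 290 CPM (ratio 6.68, 4.95 to 9.24), with 0.585, 17.4 and 50.9 CPM as lowest, median and highest level without arsenic, 23.0 CPM with arsenic 5 µM and 552 CPM with arsenic 15 µM. MT1X stood at 1.93 and 49.0 CPM on 2 and 132 counts (ratio 25.4, 6.89 to 212), and MT1G at 0.965 and 23.0 CPM on 1 and 62 counts (ratio 23.8, 4.12 to 956). MT2A was thus higher than with the same dose of arsenic alone and lower than at 15 µM. MT1M, MT1E and MT1F had ratios of 5.08, 4.77 and 3.75, and MT1A and MT1B were not counted as apart. MT1 genes have near-identical sequences, so the level of any single copy is uncertain.

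MTF1 binds metal response elements, whose core is written here as TGCNCNC and searched on both strands from 250 bases before to 50 after each start. A match is common, with 55.2% of 27305 RefSeq promoters holding at least 1, and 63.9% of those of higher genes against 62.9% of all tested genes. All 5 metallothionein genes with a promoter in the table held it, namely MT1B, MT1H, MT1X, MT2A and MT4. Of these MT1X and MT2A were counted as higher and MT1B was not. MT1H, with 8 matches, and MT4 did not pass the filter on low counts. The 200 bases before the starts of MT1X (chr16:56682270-56682469, plus strand) and MT2A (chr16:56608384-56608583, plus strand), on the GRCh38.p14 build of RefSeq, are shown because edgeR called MT1X and MT2A had the most reads of the family; capitals mark the core on either strand, 4 matches for MT1X and 6 for MT2A. The counts themselves were made on GRCh37 and no coordinate was converted.
MT1X: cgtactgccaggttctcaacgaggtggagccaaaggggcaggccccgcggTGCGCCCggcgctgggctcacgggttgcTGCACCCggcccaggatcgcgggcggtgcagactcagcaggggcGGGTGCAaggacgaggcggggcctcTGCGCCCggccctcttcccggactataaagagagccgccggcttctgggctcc
MT2A: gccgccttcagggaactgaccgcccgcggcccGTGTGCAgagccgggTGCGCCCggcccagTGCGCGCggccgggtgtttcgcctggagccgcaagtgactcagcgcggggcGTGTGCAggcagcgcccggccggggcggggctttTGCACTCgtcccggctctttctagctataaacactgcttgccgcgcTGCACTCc

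Zinc and copper genes outside the metallothioneins were mostly near the control. SLC30A1, a zinc exporter that MTF1 controls, stood at 21.2 and 79.0 CPM (ratio 3.72, 2.40 to 6.07), above the 11.5 to 32.3 CPM of the libraries without arsenic, with 101 CPM at arsenic 5 µM and 287 CPM at 15 µM. It was the only one of 10 zinc genes counted as apart. Of 22 tested copper handling genes 1 was higher and 2 were lower (median log2 ratio -0.20, or 0.14 with GC and length trends removed), a share close to that over all genes. COX19, a factor for cytochrome oxidase assembly, stood at 11.6 and 44.9 CPM (ratio 3.88, 2.14 to 7.71). SOD1, the copper and zinc superoxide dismutase, stood at 431 and 199 CPM (ratio 0.462, 0.407 to 0.525) and COMMD1, which helps copper export, at 20.3 and 4.82 CPM (ratio 0.238, 0.110 to 0.498). SOD1 spread from 32.3 to 563 CPM over the libraries without arsenic, so its level with copper lies inside that range. The importer SLC31A1 (46.3 and 85.3 CPM), the exporting ATPase ATP7B (50.2 and 63.4 CPM), the SOD1 chaperone CCS (126 and 145 CPM) and the chaperone ATOX1 (18.3 and 9.27 CPM) were not counted as apart.

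Arsenic handling was read from 14 tested genes. Near the shares over all genes (9.37% higher and 7.0% lower), 2 of them were higher and 0 lower. Both encode exporters that carry glutathione conjugates: ABCC1 at 17.4 and 59.7 CPM (ratio 3.44, 2.11 to 5.95) and ABCC2 at 82.0 and 277 CPM (ratio 3.38, 2.70 to 4.28). AS3MT, the arsenic methyltransferase, and AQP9, the aquaglyceroporin that lets arsenite into hepatocytes, had 0 counts in both libraries, which allows up to 2.90 CPM in the control and 1.11 CPM with arsenic and copper.

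Cytosolic heat shock genes were uneven, with 11 of 28 higher, 0 lower and a median log2 ratio of 0.65. HSPA6 had 0 counts in the control and 722 with arsenic and copper (268 CPM), at least 92.5-fold higher against the 3-count floor; the libraries without arsenic had 0, 0 and 11.3 CPM as lowest, median and highest level, and arsenic alone 12.3 CPM at 5 µM and 4759 CPM at 15 µM. HSPA1A stood at 24.1 and 331 CPM (ratio 13.7, 9.23 to 21.3), with 22.5 CPM at arsenic 5 µM and 4121 CPM at 15 µM. HSPA6 was therefore far above the library with the same arsenic dose and far below the 15 µM library. HSPA1A as counted had the same order. HSPA1B, the near-identical copy of HSPA1A, stood at 34.7 and 388 CPM, but at 439 CPM with arsenic 5 µM. Reads of the pair were thus not split evenly and neither level is certain. How far the pair differed between arsenic 5 µM with and without copper cannot be read from HSPA1A alone. HSPA6 also has a close copy, HSPA7.

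The small chaperones CRYAB (0.965 and 34.5 CPM on 1 and 93 counts, ratio 35.8, 6.26 to 1427) and HSPB8 (19.3 and 189 CPM, ratio 9.80, 6.28 to 16.2) were higher. So were the cochaperones DNAJA4 (ratio 9.23), BAG3 (18.3 and 79.4 CPM, ratio 4.33, 2.71 to 7.33), DNAJB4 (3.08) and DNAJB1 (2.85), the disaggregation partner HSPH1 (2.54) and HSP90AA1, the inducible HSP90 (1087 and 2316 CPM, ratio 2.13, 2.00 to 2.27). The constitutive and mitochondrial chaperones lay near the control: HSPA8 had a ratio of 1.08 (1.04 to 1.13), HSPD1 1.14 (1.06 to 1.23) and HSPE1 0.905 (0.640 to 1.30). None of the 30 proteasome genes was counted as apart (median log2 ratio -0.19).

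HSF1 binds inverted repeats of GAA. The pair GAANNTTC lay in 11 of 26 heat shock promoters and in 6.87% of all promoters of the same length, and the triple, that pair followed by NNGAA, in 6 of 26 (23.1%) and in 0.487%, each triple also holding the pair. Among all genes counted as higher the pair lay in 4.63% and the triple in 0.308%, against 4.87% and 0.408% of all tested genes. The stretches below are the 200 bases before the starts of HSPA6 (chr1:161524340-161524539, plus strand), HSPA1A (chr6:31815343-31815542, plus strand) and HSPA8 (chr11:123062137-123062336, minus strand), GRCh38.p14. They are shown because HSPA6 and HSPA1A lay far above the control while HSPA8, whose stretch also holds a triple, hardly differed; capitals mark the triple in HSPA6 and HSPA8, read on either strand, and the pair in HSPA1A.
HSPA6: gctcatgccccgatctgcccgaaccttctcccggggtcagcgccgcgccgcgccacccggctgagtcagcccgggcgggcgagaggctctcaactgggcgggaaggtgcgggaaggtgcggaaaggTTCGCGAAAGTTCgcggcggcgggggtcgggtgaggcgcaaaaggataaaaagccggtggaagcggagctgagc
HSPA1A: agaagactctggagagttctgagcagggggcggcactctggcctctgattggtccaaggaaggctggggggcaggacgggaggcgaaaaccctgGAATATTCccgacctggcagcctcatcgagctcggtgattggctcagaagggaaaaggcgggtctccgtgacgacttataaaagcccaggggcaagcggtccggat
HSPA8: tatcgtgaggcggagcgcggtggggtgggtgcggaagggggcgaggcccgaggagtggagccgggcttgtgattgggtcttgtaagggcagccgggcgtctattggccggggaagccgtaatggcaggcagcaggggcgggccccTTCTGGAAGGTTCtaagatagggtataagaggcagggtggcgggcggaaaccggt

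Genes of the integrated stress response, the targets of ATF4 and CHOP, had 22 of 25 tested members higher and 0 lower (median log2 ratio 2.22, or 2.08 with the gene absent from the control at its floor). Its transcription factors DDIT3, which encodes CHOP, stood at 35.7 and 109 CPM (ratio 3.07, 2.17 to 4.44) and ATF3 at 8.68 and 64.9 CPM (ratio 7.48, 3.85 to 16.6). ATF4 itself, which is controlled mainly in translation, stood at 518 and 800 CPM (ratio 1.54, 1.40 to 1.70) and was not counted as apart. TRIB3, a pseudokinase that feeds back on ATF4, stood at 140 and 824 CPM, with 45.8, 92.6 and 140 CPM as lowest, median and highest level without arsenic, 997 CPM at arsenic 5 µM and 1944 CPM at 15 µM. All 3 arsenic libraries lay above the other 6 for TRIB3 and for DDIT3 (115 and 336 CPM with arsenic alone).

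The outputs of the pathway were higher across its branches. GDF15, a secreted stress signal, stood at 7.72 and 105 CPM (ratio 13.7, 6.83 to 31.9), CHAC1, which breaks down glutathione, at 10.6 and 97.9 CPM (ratio 9.23, 5.07 to 18.7), and SESN2, an inhibitor of mTORC1, at 33.8 and 327 CPM (ratio 9.69, 6.91 to 14). PPP1R15A, which ends the response by dephosphorylating eIF2α, stood at 37.6 and 220 CPM (ratio 5.86, 4.23 to 8.32), with 48.9 CPM at arsenic 5 µM and 2285 CPM at 15 µM. Amino acid genes were part of it: ASNS, asparagine synthetase, at 40.5 and 189 CPM (ratio 4.67, 3.41 to 6.56), PHGDH and PSAT1 of serine synthesis with ratios of 2.91 and 2.40, SHMT2 and MTHFD2 of one-carbon metabolism with 2.40 and 2.80, and the transporter SLC7A5 with 3.33. ASNS lay inside the range of the libraries without arsenic, where 1 library reached 395 CPM. Of 20 cytosolic tRNA synthetase genes 6 were higher and 0 lower, led by CARS (ratio 3.19, 2.43 to 4.26); with DESeq2 size factors 3 were higher and 0 lower, and against the exosome library 4 and 1.

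The element TGATGNAA, one part of the composite site that ATF4 and C/EBP proteins bind, lay in 5 of 22 promoters of the list (22.7%) and in 3.67% of all promoters. It was not particular to this list, since 4 of 14 bile acid promoters (28.6%) held it too. Among genes counted as higher the share was 1.54%, against 2.55% of the lower genes and 1.92% of all tested genes. ASNS, where the composite site is textbook knowledge, is shown for its 200 bases before the start (chr7:97872409-97872608, minus strand, GRCh38.p14), with the element in capitals.
ASNS: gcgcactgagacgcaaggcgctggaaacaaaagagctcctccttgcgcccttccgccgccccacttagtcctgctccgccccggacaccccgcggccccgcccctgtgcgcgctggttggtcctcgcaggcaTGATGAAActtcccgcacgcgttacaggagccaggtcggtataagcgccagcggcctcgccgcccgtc

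Chaperones of the endoplasmic reticulum did not share that direction: 7 of 22 were lower, 1 was higher and the median log2 ratio was -0.75. HSPA5, the central chaperone BiP, stood at 864 and 425 CPM (ratio 0.492, 0.450 to 0.537), CALR, calreticulin, at 2033 and 695 CPM (ratio 0.342, 0.321 to 0.364), and PDIA4, a disulfide isomerase, at 455 and 117 CPM (ratio 0.257, 0.222 to 0.297). MANF, a secreted stress factor, stood at 98.4 and 15.2 CPM, the lowest ratio of the list (0.155, 0.105 to 0.224). Each of these 4 lay below all 6 libraries without arsenic, as did 12 of the 22 genes. HSPA5 was at 332 CPM with arsenic 5 µM but at 1881 CPM with arsenic 15 µM. EDEM1, a factor of misfolded protein disposal, was the higher gene (77.2 and 176 CPM). With GC and length trends removed 3 genes were lower and 1 was higher (median -0.70).

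Immediate early genes, which respond to kinases within minutes, had 18 of 29 members higher and 2 lower (median log2 ratio 1.39). NR4A1, an orphan nuclear receptor, stood at 10.6 and 155 CPM (ratio 14.6, 8.06 to 29.4), the AP-1 member FOSL2 at 8.68 and 68.6 CPM (ratio 7.90, 4.07 to 17.6), JUN at 68.5 and 158 CPM (ratio 2.31, 1.79 to 3.01), and GADD45B, a stress sensor, at 6.75 and 57.9 CPM. FOSB had 0 counts in the control and 30 with arsenic and copper, at least 3.84-fold higher. At arsenic 15 µM these 5 genes were higher still (1298, 198, 602, 284 and 95.4 CPM), and the library with 5 µM alone had 23.4, 50.2, 26.4, 6.81 and 0.425 CPM. Within the libraries without arsenic FOSL2, JUN and GADD45B reached 86.7, 187 and 80.3 CPM, so for these 3 the level with copper was not outside their spread.

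The 2 lower early genes were DUSP6, the phosphatase that switches off ERK (200 and 36.4 CPM, ratio 0.182, 0.142 to 0.233), and IER3 (56.9 and 7.79 CPM, ratio 0.137, 0.0790 to 0.229). SPRY1, an inhibitor of receptor tyrosine kinase signalling and among the 15 lowest genes, stood at 65.6 and 6.68 CPM (ratio 0.102, 0.0569 to 0.173). DUSP6 and SPRY1 reached 11.3 and 4.52 CPM in other libraries without arsenic, so both stayed within that range.

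Autophagy and lysosome genes had 11 of 24 members higher and 0 lower (median log2 ratio 0.93). The receptor SQSTM1, which NRF2 also controls, stood at 416 and 1573 CPM (ratio 3.78, 3.43 to 4.19), the initiating kinase ULK1 at 28.0 and 142 CPM (ratio 5.08, 3.48 to 7.68), and the lipid carrier ATG9A at 57.9 and 231 CPM (ratio 3.99, 3.05 to 5.29). GABARAPL1 and MAP1LC3B, which coat autophagosomes, had ratios of 3.74 and 3.02. ULK1 reached 185 CPM in a library without arsenic, while SQSTM1 and ATG9A lay above all 6.

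Of 21 p53 targets 7 were higher and 0 lower (median log2 ratio 0.86), and GDF15, SESN2 and GADD45A of these are shared with the stress lists above. HuH-7 is a p53-mutant line, and whether p53 acted on these genes was not tested. CDKN1A, the cell cycle inhibitor p21, stood at 9.65 and 62.3 CPM (ratio 6.46, 3.43 to 13.7), with 106 CPM in 1 library without arsenic and 752 CPM at arsenic 15 µM. In the BCL2 family the death-promoting PMAIP1 stood at 4.83 and 35.2 CPM and BAK1 at 24.1 and 62.7 CPM, and the mitophagy receptors BNIP3L and BNIP3 had ratios of 3.96 and 2.06. These were the 4 higher genes of 17, with 0 lower. Mitosis genes had 0 higher and 1 lower of 30, and replication genes 1 higher and 3 lower of 30. Beside these 4 lists, 9.37% of all genes were higher and 7.0% lower. With DESeq2 size factors 6 replication genes were lower, beside 1556 of 18237 over all genes. Against the exosome library 7 of the 17 BCL2 family genes were higher, beside 1579 of 18237 over all genes.

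Structural and signalling genes filled the other places among the 15 highest protein-coding genes. FLNC, filamin C, an actin crosslinker, stood at 85.9 and 2458 CPM (ratio 28.6, 23.2 to 35.7), with 13.8 to 97.6 CPM in the libraries without arsenic, 1335 CPM at arsenic 5 µM and 10480 CPM at 15 µM. ANKRD1, an ankyrin repeat gene, stood at 18.3 and 200 CPM, and MAP1B, a microtubule protein, at 41.5 and 449 CPM (ratios 10.9 and 10.8). FLNC, ANKRD1 and MAP1B were each higher with every arsenic treatment than in the 6 other libraries. The cytokine IL11 had 0 counts in the control and 75 with arsenic and copper (27.8 CPM, at least 9.61-fold higher), and IRS2, the insulin receptor substrate, 0 and 88 counts (at least 11.3-fold higher), although IRS2 reached 97.1 CPM in a library without arsenic.

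In metabolism, 4 of 24 glycolysis genes were higher and 0 lower (median log2 ratio 0.64), and 4 of 21 cholesterol genes were higher and 0 lower (0.51). Over all genes 9.37% were higher and 7.0% lower. INSIG1, a brake on cholesterol synthesis, stood at 83.0 and 176 CPM (ratio 2.12, 1.68 to 2.70), and LSS, lanosterol synthase, at 149 and 308 CPM (ratio 2.07, 1.75 to 2.48). SLC2A1, a glucose transporter, and HK2, a hexokinase, had ratios of 2.27 and 2.18. With DESeq2 size factors these lists held 2 higher genes each, close to the share over all genes in that setting (1299 higher of 18237). Against the exosome library 7 glycolysis genes were higher, beside 1579 of 18237 over all genes.

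**Figure D3:**
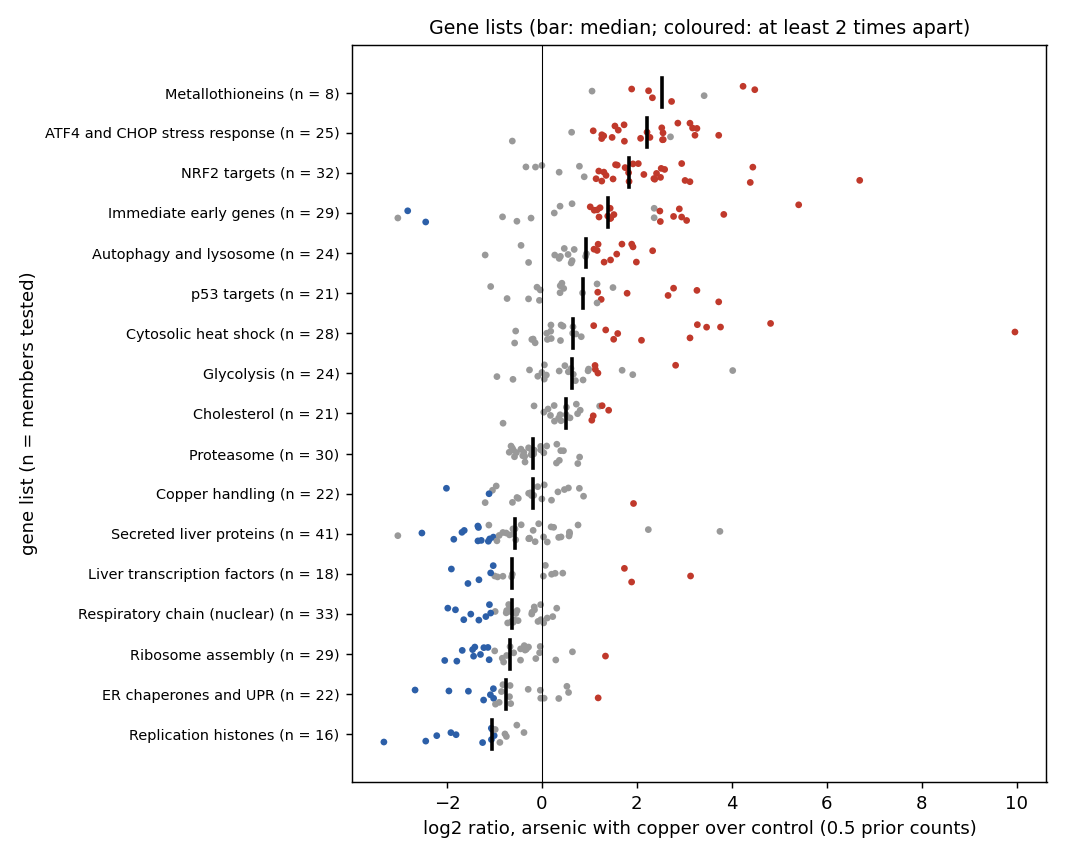
Log2 ratio of each tested member (points) and the median (black bar) for 17 gene lists, arsenic with copper over control; red and blue points are members counted as higher and lower. Metallothioneins, the ATF4 and CHOP list and NRF2 targets have the highest medians (2.53, 2.22 and 1.83), and replication histones the lowest (-1.05).

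Secreted liver proteins were lower or near the control, with 11 of 41 lower, 0 higher and a median log2 ratio of -0.57. The fibrinogen chains FGA (510 and 164 CPM, ratio 0.321, 0.282 to 0.365) and FGB (767 and 377 CPM, ratio 0.492, 0.448 to 0.540) lay below all 6 libraries without arsenic, which held at least 508 and 417 CPM. APOA2, an HDL apolipoprotein, stood at 2041 and 808 CPM and the acute phase protein ORM2 at 252 and 43.4 CPM (ratio 0.172, 0.137 to 0.215), both inside the range of those libraries. ALB, albumin, stood at 6790 and 5015 CPM (ratio 0.739, 0.718 to 0.760), and APOB and C3 had ratios of 1.19 and 1.28. FABP1, the liver fatty acid binding protein, stood at 204 and 26.7 CPM (ratio 0.131, 0.0990 to 0.172), below the 84.6 CPM minimum without arsenic. With GC and length trends removed 7 of the 41 were lower (median -0.23).

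Among 18 liver transcription factors 5 were lower and 3 higher. HHEX (92.6 and 24.5 CPM), FOXA1 (103 and 34.9 CPM), FOXA3, PROX1 and NR1H4, the bile acid receptor, were lower, while HNF4A stood at 408 and 231 CPM (ratio 0.565, 0.499 to 0.641). NR1I2, the xenobiotic receptor PXR, stood at 2.90 and 27.5 CPM on 3 and 74 counts (ratio 9.48, 3.12 to 47.0), above the 11.0 CPM maximum without arsenic, and the fatty acid sensor PPARA and CEBPB had ratios of 3.77 and 3.36.

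Growth and energy genes leaned lower. Of 29 ribosome assembly genes 10 were lower and 1 higher (median log2 ratio -0.67), among them the nucleolar proteins NOP56 (393 and 113 CPM, ratio 0.288, 0.248 to 0.335), NCL (461 and 197 CPM) and FBL (193 and 87.5 CPM). RRN3, a factor for RNA polymerase I, was the higher gene, with a ratio of 2.56 (1.53 to 4.54). Of 33 nuclear genes of the respiratory chain 8 were lower and 0 higher (median -0.64), for example COX5A (52.1 and 12.98 CPM, ratio 0.249, 0.158 to 0.388), COX7C (0.318) and NDUFA4 (0.353); with the exosome library as reference 4 were lower and with GC and length trends removed 3. None of the 13 genes encoded in mitochondria was counted as apart (median -0.39). With DESeq2 size factors 2 of the 13 were lower, and with GC and length trends removed 2 were higher and the median turned to 0.54.

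All 16 matched replication histone genes had ratios below 1, and 10 were lower (median log2 ratio -1.05). HIST1H2BK stood at 323 and 31.9 CPM (ratio 0.0987, 0.0769 to 0.125), below every library without arsenic (42.2 CPM at least), and HIST1H1C, a linker histone, at 995 and 475 CPM. The control held the highest level of 15 of the 16 among the libraries without arsenic. Against the exosome library 4 were lower (median -0.42), and with GC and length trends removed 5 (median -0.47). Histone copies are near-identical, so single levels are uncertain, and most replication histone mRNAs lack a poly(A) tail, which a library made by ribosomal depletion does not need.

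Other lists were mixed in direction or had few members apart, beside 9.37% higher and 7.0% lower over all genes. Actin and serum response genes had 4 higher and 1 lower of 19, with filamin A, FLNA, at 1133 and 4026 CPM (ratio 3.55, 3.35 to 3.78), above the 1637 CPM maximum without arsenic, and the matrix factor CTGF at 45.4 and 15.2 CPM. Urea cycle and amino acid genes had 2 higher and 0 lower of 17, namely HPD and ASS1, argininosuccinate synthase (44.4 and 152 CPM, ratio 3.42, 2.52 to 4.74). Bile acid genes had 4 higher and 4 lower of 16, cytochrome P450 and conjugation genes 1 and 2 of 22, and inflammation genes 0 and 1 of 14. Among 8 genes used to follow RNA quality 0 were higher and 1 lower, the growth-linked noncoding RNA GAS5 (1787 and 803 CPM).

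The remaining genes among the 15 lowest protein-coding ones mostly had few counts. TMA7, a translation factor, stood at 239 and 38.2 CPM (ratio 0.160, 0.126 to 0.202), NTS, neurotensin, at 50.2 and 4.08 CPM, RAPGEF4, a cAMP sensor, at 47.3 and 3.71 CPM, and ZFP2, a zinc finger gene, at 43.4 and 2.97 CPM. LFNG, which modifies Notch receptors, had 24 counts in the control and 1 with arsenic and copper (ratio 0.0160, 0.000390 to 0.0982). NLRP13, METTL24 and TFAP2A had 12, 10 and 9 counts in the control and 0 with arsenic and copper, at least 10.4, 8.67 and 7.80-fold lower. COPS9, CTXND1 and NAT8 had 25, 13 and 14 counts against 4, 1 and 1.

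Noncoding genes were most often counted as lower in 2 classes. Of 297 genes of the misc_RNA class, largely copies of 7SL and 7SK RNA, 108 were lower and 0 higher, and of 161 small nuclear RNA genes 64 were lower and 0 higher. Processed pseudogenes also leaned lower, with 57 lower and 3 higher of 595 (median log2 ratio -1.20), beside 7.0% lower over all genes. With GC and length trends removed 23 of these pseudogenes were lower and 10 higher. RN7SL151P stood at 472 and 24.5 CPM, RN7SL521P at 130 and 1.11 CPM, and the 5.8S pseudogene RNA5-8SP6 at 170 and 4.08 CPM. The reads of such copies are hard to place, and with GC and length trends removed 53 misc_RNA genes were lower and 5 higher, and 23 small nuclear RNA genes were lower and 5 higher. Of 161 small nucleolar RNA genes 17 were higher and 23 lower (median log2 ratio -0.31), but with GC and length trends removed 61 were higher and 2 lower (median 0.92), and against the exosome library 21 and 8. The direction of this class thus depends on the processing. It took 4.85% of counts in the control, 6.28% with arsenic and copper and 35.5% with arsenic 5 µM. SNORD7 stood at 32.8 and 201 CPM (ratio 6.14, 4.34 to 8.96) and SCARNA20 at 13.5 and 119 CPM, with 4277 and 1358 CPM at arsenic 5 µM. AL365181.3, annotated as antisense, stood at 15.4 and 137 CPM, and since the strand setting of the counting is not given in the sources used here its reads may belong to the overlapping gene.

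The libraries with arsenic alone share the control with this comparison, so their values are given side by side and not as separate evidence. NRF2 targets had 17 higher and 4 lower of 32 at arsenic 5 µM, 26 and 0 with copper, and 21 and 0 at arsenic 15 µM, with medians of 1.19, 1.83 and 1.46. Heat shock genes had 7 higher and 5 lower of 28 at 5 µM, 11 and 0 with copper, and 26 and 0 at 15 µM (medians 0.47, 0.65 and 2.24). For metallothioneins the counts of 8 were 2, 6 and 7 higher with 0 lower in each (medians 0.95, 2.53 and 3.14). The heat shock, metallothionein, ATF4 and early gene medians thus had the order arsenic 5 µM, arsenic with copper, arsenic 15 µM, with 1 library each and no test of the steps.

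Stress response genes had 14 higher and 2 lower of 25 at 5 µM, 22 and 0 with copper and 24 and 0 at 15 µM, and early genes 6 and 7, 18 and 2, and 25 and 1 of 29. On the lower side the order differed between lists: secreted liver proteins had medians of -1.54, -0.57 and -1.03, respiratory chain genes -1.53, -0.64 and -1.23, and ribosome assembly genes -1.16, -0.67 and -1.12, so the library with copper was nearest to the control on these 3 lists. Chaperones of the endoplasmic reticulum had medians of -0.07, -0.75 and -0.40, where the library with copper was the farthest from the control. Glycolysis and cholesterol genes had medians of 0.64 and 0.51 with copper, -0.71 and 0.03 at arsenic 5 µM, and -0.29 and -0.91 at 15 µM. The arsenic 5 µM library also differed in make-up, with Pearson's r between gene GC content and log2 level relative to the mean of all 9 libraries of -0.39 across 17741 genes, against 0.31 with copper and 0.18 at 15 µM, and the part of this in the differences between the libraries was not tested. In the exosome library NRF2 targets, heat shock genes and the ATF4 and CHOP list each had 0 higher and 1 lower member, and metallothioneins 0 and 0.

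**Figure D4:**
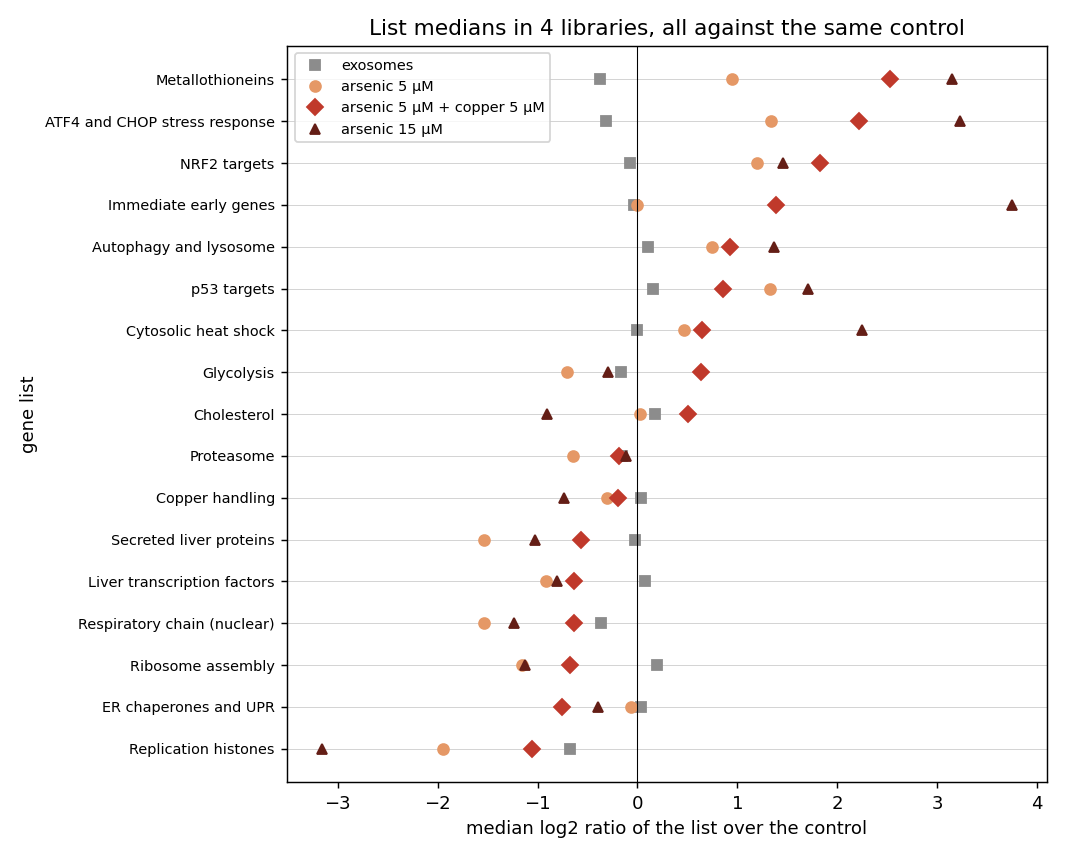
Median log2 ratio over the control of 17 gene lists in 4 libraries (grey square, exosomes; orange circle, arsenic 5 µM; red diamond, arsenic 5 µM with copper 5 µM; dark triangle, arsenic 15 µM), all against the same control. The exosome medians lie between -0.68 and 0.19, and the red diamond is the rightmost of the 3 arsenic points for NRF2 targets, glycolysis, cholesterol and copper handling and for the lists with negative medians other than endoplasmic reticulum chaperones and the proteasome.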

How the data were processed

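Total RNA of HuH-7 cultures was depleted of ribosomal RNA and sequenced on Ion Torrent, 1 library per condition, per the labels. The deposited files hold raw counts of reads for each Ensembl gene. Per the submitters' processing notes, TopHat2 2.0.13, HTSeq 0.6.1 and GRCh37 were used; for the annotation release and strand setting the labels and notes name nothing. Summary lines that name no gene held 64.0% of the reads in the control and 43.5% with arsenic and copper and were left out.

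Genes reaching 1 CPM in 2 or more of 9 libraries were scaled by TMM (edgeR 4.0.16, R 4.3.3). Ratios carry exact conditional binomial (Clopper-Pearson) 95% intervals, and the floor for 0 counts is 3 counts a library, 2.90 CPM in the control; both cover counting error only. The edgeR model had terms for acetaminophen, exosomes, caffeine, arsenic alone and arsenic with copper, with Benjamini-Hochberg adjustment; an SE is the absolute log2 fold change over the square root of F. DESeq2 1.42.0 was an alternative. Both computations were tested on simulated data. Symbols, types, length and GC came from GENCODE 29 and RefSeq (52526 identifiers with a type); 757 of 769 entries of 35 gene lists matched. Named genes were the 15 highest and 15 lowest protein-coding and 5 and 5 other genes by the interval bound nearest 1, list members marked beforehand or with the farthest bounds, and genes called by edgeR; some named by this rule are not reported here. Members and lists were chosen with earlier results of these data known. Figures used matplotlib 3.10.9 with Python 3.11.15.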

Additional observations from a re-analysis of the deposited data

How the results depend on the processing

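At 4 times in place of 2 times, 495 genes were higher and 592 lower. DESeq2 size factors, no filter on low counts (1508 higher, 1419 lower), protein-coding genes alone (1262 and 1048), a prior count of 2 (1669 and 1240), the exosome library as reference (1579 and 1543) and removal of GC and length trends kept both counts within 1.5 times of the main ones. Of the 1708 higher and 1276 lower genes, 914 and 723 were also counted against the exosome library. The edgeR term moved more: it called 3 higher and 0 lower genes with DESeq2 size factors, 17 and 1 with no filter, 0 and 0 with protein-coding genes alone, 62 and 28 with 1 term for all 3 arsenic libraries, and 3 and 2 by DESeq2. Leaving out 1 of the other 8 libraries gave 0 to 100 higher and 0 to 24 lower genes. The lowest count came without the control or acetaminophen and the highest without arsenic 5 µM. With either dose of arsenic alone left out, the spread no longer holds the difference between the 2 doses. The cause of these moves was not tested. No paired analysis was possible because the labels give no replicate numbers and each condition has 1 library. Of the 2 libraries compared the control is the shallower: 3 counts stand for 2.90 CPM there and for 1.11 CPM with arsenic and copper.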

Other observations

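A scan of the 18237 genes asked which stood at least 2 times above each of the other 8 libraries in arsenic with copper, with a counting interval against the next library that excludes 1. It found 22 such genes and 8 at least 2 times below all others; the same scan gave 731 and 335 for arsenic 15 µM, 355 and 249 for arsenic 5 µM, and 1 and 1 for exosomes. The genes named here were chosen after their values were seen. Of the 22, TKT, transketolase, stood at 797 CPM (next library 390 CPM). UBE2L6, an enzyme of ISG15 conjugation (126 CPM, next 56.9 CPM), OAS1, which senses double-stranded RNA (34.9 CPM, next 15.8 CPM), and APOL1 (10.0 CPM, next 3.95 CPM) are known as interferon-induced genes. Epithelial genes were AP1M2, an adaptor subunit of basolateral sorting (167 CPM, next 65.9 CPM), and KRT7, a keratin (15.6 CPM, next 3.86 CPM). The 8 lower genes included DPP4 (2.97 CPM, next 7.66 CPM), the activin receptor ACVR2A (2.97 CPM, next 8.93 CPM) and LFNG (0.371 CPM, next 3.04 CPM).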
